A study of Mus musculus with 24 samples.

Results

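The p53 target genes described here are Cdkn1a, Mdm2, Ccng1, Bax, Phlda3, Eda2r, Sesn2, Trp53inp1, Gdf15 and Btg2, which are 10 of the 21371 genes that could be named on the array. They were listed by symbol, as genes that p53 is known to switch on after DNA damage. The arrays come from a comparison of female mice that carry the I312R point mutation in Rap1 (gene symbol Terf2ip) with wild-type (WT) females. The knockin (KI) allele was made with CRISPR/Cas9, was backcrossed to C57BL6 mice, was present in both copies according to the study, and is carried by every cell of the animal. WT mice were littermates according to the study, and neither genotype received a treatment. Total RNA of liver, brain, heart and skeletal muscle came from the same 6 mice, so that each of the 8 groups held 3 arrays. The letters A, B and C stand for the KI mice and D, E and F for the WT mice; C and F were 14 months old and the others 15 months old. The question was whether transcripts of a DNA damage response were altered in tissues of mice whose RAP1 is not held at telomeres.

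The protein p53 is a transcription factor that is kept scarce by MDM2 and becomes stable when the kinases ATM and ATR report broken or unprotected DNA, including uncapped telomeres. It then raises a set of genes that halt the cell cycle, repair DNA or kill the cell, and among these Cdkn1a and Mdm2 are commonly used as readouts. Cdkn1a encodes p21, the inhibitor of cyclin-dependent kinases behind the arrest, and Btg2 encodes an antiproliferative regulator of mRNA decay. Ccng1 encodes cyclin G1, which acts together with a phosphatase on MDM2, and Mdm2 encodes the ubiquitin ligase that closes the feedback loop. Bax encodes a protein that permeabilizes mitochondria in apoptosis, Phlda3 a repressor of AKT, Eda2r a receptor of ectodysplasin A2, and Trp53inp1 a stress protein that acts in autophagy and apoptosis. Sesn2 encodes a leucine sensor upstream of mTORC1, and Gdf15 encodes a secreted stress hormone. Several of these genes, Sesn2, Gdf15 and Trp53inp1 among them, also respond to other stresses, and Btg2 is also an immediate early gene.

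The sequence by which p53 recognizes its targets is a pair of decamers, each called a half-site. Half-sites were searched in windows from 250 bases before to 50 bases after a transcription start, taken from RefSeq (build GRCm38.p6), in which 9 of the 10 genes had 11 windows and Trp53inp1 had none. The consensus used was the p53 half-site by name, which reads the same on both strands, and a pair was counted where at most 13 bases lay between the decamers. A half-site was found in 8.36% of the 32851 promoter windows of the mouse and in windows of 4 of the 9 genes, namely Cdkn1a, Mdm2, Ccng1 and Bax. A pair was found in 0.0731% of all windows and in 1 of the 9 genes, Cdkn1a. Its decamers began 73 and 51 bases before the upstream one of its starts and lay 12 bases apart. Only exact matches were counted. The decamer that directly follows the Cdkn1a half-site at 51 bases departs from the consensus in its first base alone. It was not counted and is not in capitals, so the marked pair need not be the pair that p53 binds. Windows of 100 bases around the half-sites are shown 5′ to 3′ on the strand of the gene, with half-sites in capitals, because these are the promoters among the listed genes in which a half-site was present; only that of Cdkn1a held a pair.
Cdkn1a, chr17:29090866-29090965, plus strand: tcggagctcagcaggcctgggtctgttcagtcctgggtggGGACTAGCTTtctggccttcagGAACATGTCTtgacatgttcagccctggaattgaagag
Mdm2, chr10:117710885-117710984, minus strand: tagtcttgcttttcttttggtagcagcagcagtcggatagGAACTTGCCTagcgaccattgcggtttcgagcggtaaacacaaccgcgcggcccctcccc
Ccng1, chr11:40755412-40755511, minus strand: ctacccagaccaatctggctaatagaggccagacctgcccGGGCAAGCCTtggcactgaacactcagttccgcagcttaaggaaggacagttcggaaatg
Bax, chr7:45467040-45467139, minus strand: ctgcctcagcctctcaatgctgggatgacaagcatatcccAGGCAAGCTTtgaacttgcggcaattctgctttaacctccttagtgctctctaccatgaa
A match of these letters is a description of the window and shows no binding.

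A level is the log2 processed signal from which the log2 75th percentile of that array was subtracted, so that a level of 0 is a signal equal to that percentile. Levels are compared for the same probe between arrays, never between genes. The 9 genes other than Eda2r were well above background on all 24 arrays, except Gdf15 on the muscle array of KI mouse A. Eda2r was well above background on 2 of 24 arrays, and its second probe on 0. All arrays of the labelled tissue lay above all other arrays for 6 of 6 hepatocyte, 5 of 7 neuron and glia, 6 of 6 cardiomyocyte and 5 of 6 skeletal muscle markers, such as Alb at 9.26 to 10.43 in liver, Syt1 at 6.16 to 6.89 in brain, Myh6 at 8.92 to 9.23 in heart and Acta1 at 9.70 to 10.56 in muscle. The exceptions were Aif1, Mylpf and Snap25, whose probe was at 6.51 to 6.90 in brain and at 5.99 to 7.03 in heart. On 4 arrays, all from KI mice, transcripts of another tissue stood out. In the brain of KI mouse C, 6 of 6 hepatocyte markers lay above all other brains, and their summed level was 8.73 against 5.60 to 7.15. In its liver, 5 of 6 skeletal muscle markers lay above all other livers, with a sum of 4.04 against -2.20 to -1.05. In the KI mouse B muscle, 6 of 7 mammary and adipocyte markers lay above all other muscles, led by Wfdc18 at 2.50 against at most -5.94, although Csn3 was not well above background there and the summed level of 5.83 lay below that of KI mouse C. In the KI mouse B heart, 4 of the same 7 markers lay above all other hearts, among them Adipoq at 1.59 and Cidec at 1.97, and their sum was 3.02 against -0.41 to 1.11. Single markers of another tissue were also raised on a WT array. In the muscle of WT mouse E, Alb at -1.66 and Ttr at -3.85 lay above all other muscles. Its summed hepatocyte level of 2.72 lay below the 4.38 of WT mouse D.

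Across the 4 tissues, none of the p53 target genes passed the threshold between KI and WT mice. With limma and Benjamini-Hochberg adjustment over all genes tested, 0 of 9 passed in liver, brain, heart and muscle, and 0% of all genes tested passed in each of them. At an unadjusted p under 0.05 the count was also 0 of 9 in every tissue, while the share of all genes under it was 11.7% for liver, 0.79% for brain, 1.6% for heart and 0.829% for muscle. The KI mean was the higher one in 17 of the 36 comparisons of a gene in a tissue. All 3 KI mice lay on 1 side of all 3 WT mice in 1 of these 36 comparisons, that of Sesn2 in muscle, while such separation was present in 19.8% of all genes for liver, 2.82% for brain, 4.82% for heart and 3.6% for muscle. In these pieces of tissue, fewer cells of a type and less RNA per cell cannot be told apart.

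**Figure D1:**
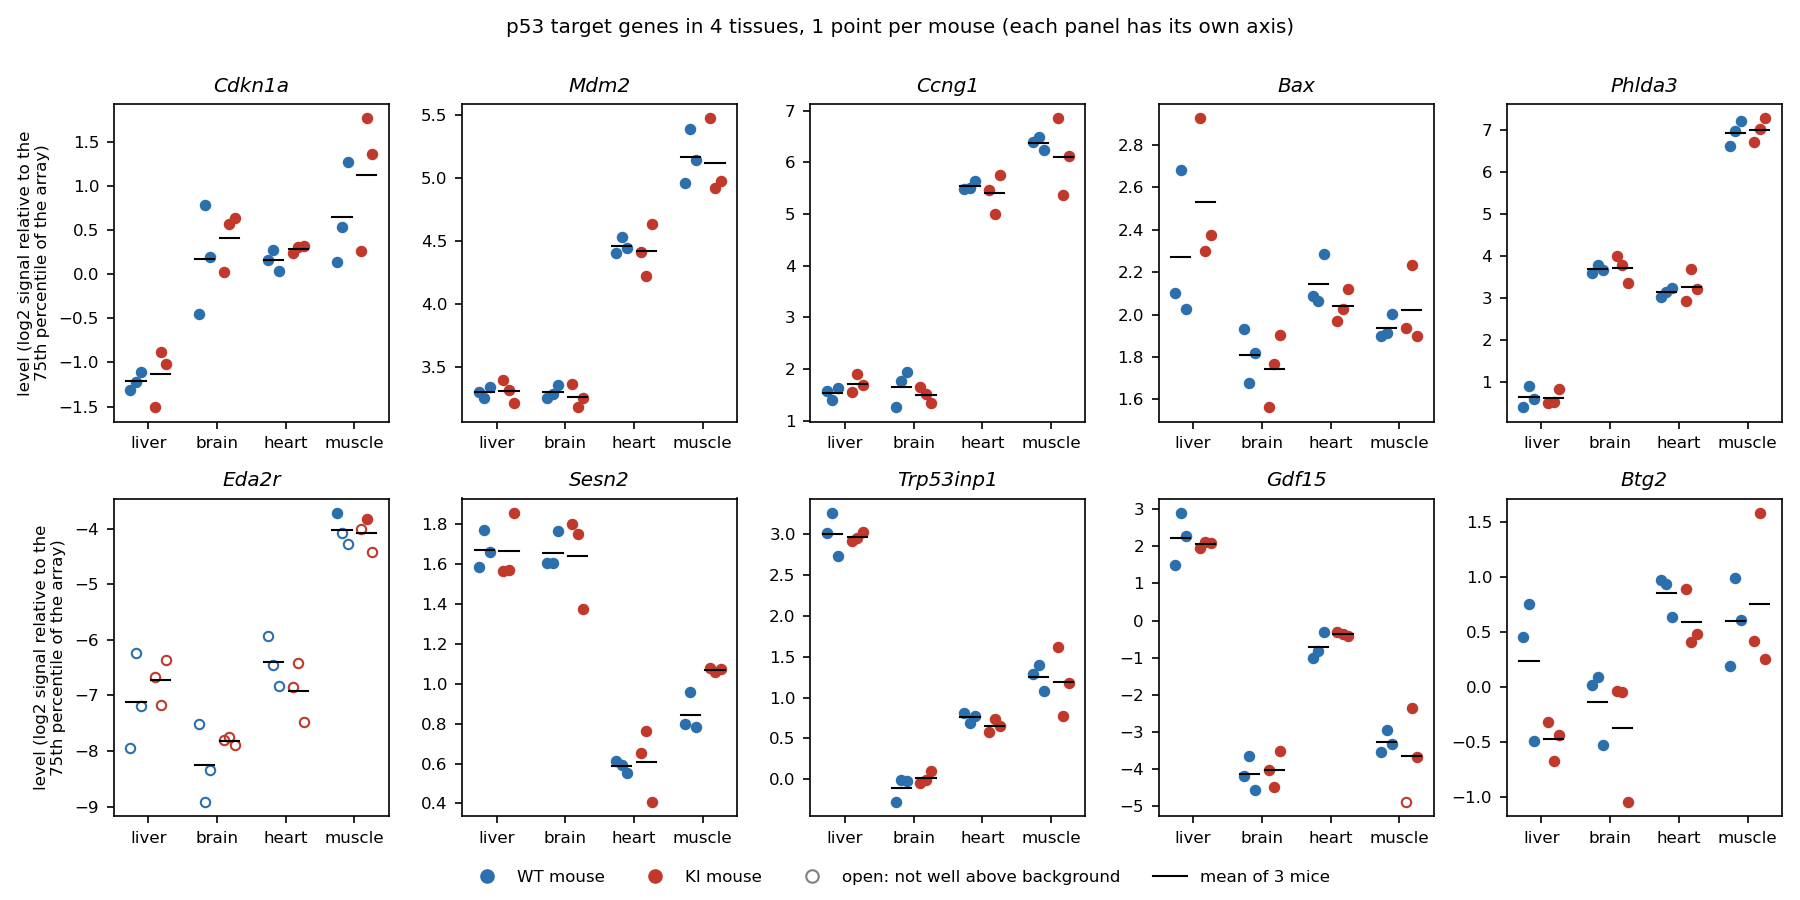
Level of each p53 target gene (log2 signal above or under the 75th percentile, vertical axis, with a scale of its own in each panel) in 4 tissues. Each point is 1 mouse, WT in blue (D, E, F from left to right) and KI in red (A, B, C), bars are means of 3 mice, and open points were not well above background. In every panel the ranges of KI and WT mice overlap within each tissue, except for Sesn2 in muscle.

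Cdkn1a, the p21 gene, had overlapping levels in KI and WT mice in all 4 tissues. In liver its levels were -1.51, -0.88 and -1.01 in KI mice A, B and C and -1.32, -1.22 and -1.11 in WT mice D, E and F. The KI livers surrounded the WT livers, and the difference was 0.08 (SE 0.19, limma adjusted p = 0.866). Brain levels were 0.03, 0.56 and 0.64 in KI mice, against -0.45, 0.78 and 0.20 in WT mice. The lowest and the highest brain were both WT, and the difference was 0.24 (SE 0.33, limma adjusted p = 1.00). Heart levels were 0.23, 0.31 and 0.32 in KI mice, against 0.16, 0.27 and 0.04 in WT mice, a difference of 0.13 (SE 0.12, limma adjusted p = 0.978). Here WT mouse E lay within the KI range. Muscle levels were 0.26, 1.76 and 1.36 in KI mice, against 0.13, 0.54 and 1.27 in WT mice. This gave the largest difference of Cdkn1a in any tissue, 0.48 (SE 0.45, limma adjusted p = 1.00), with a 95% interval from -0.58 to 1.54. The muscle of KI mouse B, which carried mammary transcripts, had the highest level, and without it the difference was 0.16. Without KI mouse A, the lowest of the KI muscles, the difference was larger than 0.48. The muscles of KI mice B and C, at 1.76 and 1.36, lay above all WT muscles, whose mean was 0.65. The 2 mice with the lowest mean over the 4 tissues were KI mouse A at -0.25 and WT mouse D at -0.37, and the other 4 lay between 0.09 and 0.44.

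A second Cdkn1a probe, designed on the transcript NM_001111099, was well above background on 10 of 24 arrays, among them all 6 hearts. Its mean in heart was -3.43 ± 0.40 in KI and -3.42 ± 0.26 in WT mice (SD, n = 3 each). In muscle it was -3.82 ± 0.46 in KI and -4.30 ± 0.25 in WT mice (SD, n = 3 each). There the probe was well above background in 2 KI and 0 WT muscles, so that the difference rests on values near background. In liver the KI mean was the lower one, at -6.10 against -5.57, with 0 KI and 1 WT livers well above background. Because the levels of 2 probes are not comparable, the values give only a comparison of the genotypes, whose heart ranges for that probe overlapped.

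Mdm2, whose transcription rises with p53 activity, had narrow ranges in liver and brain and overlapping levels in all 4 tissues. Its liver levels were 3.40, 3.32 and 3.22 in KI mice, against 3.30, 3.26 and 3.35 in WT mice, a difference of 0.010 (SE 0.11, limma adjusted p = 0.974). All 6 livers lay within a range that the KI mice alone spanned. Brain levels were 3.37, 3.18 and 3.25 in KI mice, against 3.26, 3.29 and 3.36 in WT mice, a difference of -0.037 (SE 0.12, limma adjusted p = 1.00). Heart levels were 4.42, 4.22 and 4.63 in KI mice, against 4.41, 4.53 and 4.44 in WT mice, a difference of -0.038 (SE 0.15, limma adjusted p = 0.983). Both the lowest and the highest heart were KI. Muscle levels were 5.47, 4.92 and 4.97 in KI mice, against 4.96, 5.39 and 5.14 in WT mice, a difference of -0.042 (SE 0.22, limma adjusted p = 1.00). The 95% interval reached up to 1.21-fold higher in KI in liver, 1.20-fold in brain, 1.24-fold in heart and 1.39-fold in muscle.

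Of the other genes that act on the cell cycle and on p53 itself, Btg2 had the smallest p of any of the listed genes. Its liver levels were -0.31, -0.67 and -0.44 in KI mice, against 0.46, 0.75 and -0.49 in WT mice, a difference of -0.71 (SE 0.32, limma adjusted p = 0.438). WT mouse F lay among the KI mice, and without it the difference was -1.08. Btg2 in brain differed by -0.23 (SE 0.32, limma adjusted p = 1.00), and without the brain of KI mouse C, at -1.04 the lowest of the 6, by 0.10. The heart difference was -0.26 (SE 0.18, limma adjusted p = 0.978). In muscle, KI mouse B had the highest level at 1.58 and the other 5 mice lay between 0.20 and 0.99.

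Ccng1 levels in muscle were 6.85, 5.36 and 6.12 in KI mice, against 6.41, 6.48 and 6.23 in WT mice, a difference of -0.26 (SE 0.36, limma adjusted p = 1.00). The lowest muscle was that of KI mouse B, and without it the difference was 0.11. The liver difference was 0.18 (SE 0.14, limma adjusted p = 0.594) and the brain difference -0.15 (SE 0.21, limma adjusted p = 1.00). The brain arrays lay on 2 slides, and KI minus WT was 0.39 on the first, with 1 mouse of each genotype, and -0.43 on the second, with 2 of each. In heart the difference was -0.13, with KI mouse B under and KI mouse C above all WT hearts.

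The genes of apoptosis and survival had overlapping groups in every tissue. Bax levels in liver were 2.92, 2.30 and 2.37 in KI mice, against 2.10, 2.68 and 2.03 in WT mice, a difference of 0.26 (SE 0.25, limma adjusted p = 0.644). WT mouse E lay above 2 of the 3 KI livers. Without KI mouse A the difference was 0.067. In the other tissues the means of Bax differed by at most 0.10, with overlapping groups. Phlda3 was at 0.62 ± 0.18 in KI and 0.65 ± 0.26 in WT livers, 3.72 ± 0.33 and 3.69 ± 0.10 in brains, 3.28 ± 0.38 and 3.14 ± 0.11 in hearts, and 7.00 ± 0.28 and 6.93 ± 0.31 in muscles (SD, n = 3 each). Trp53inp1 in brain was at -0.052, -0.011 and 0.10 in KI mice, against -0.28, -0.017 and -0.025 in WT mice, a difference of 0.12 (SE 0.14, limma adjusted p = 1.00). In heart it was at 0.66 ± 0.08 in KI and 0.76 ± 0.06 in WT mice, a difference of -0.10 (SE 0.12, limma adjusted p = 0.978). Eda2r was not tested in any tissue. It was well above background only in the muscles of KI mouse B, at -3.82, and WT mouse D, at -3.72, and the other 4 muscles, not well above background, had values from -4.42 to -4.01.

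The metabolic and secreted stress genes gave the 1 comparison without overlap. Sesn2 levels in muscle were 1.08, 1.06 and 1.07 in KI mice, against 0.80, 0.96 and 0.78 in WT mice. All 3 KI muscles lay above all WT muscles, by a mean difference of 0.23 (SE 0.15, limma adjusted p = 1.00), and the unadjusted limma p was 0.170. Leaving out each muscle in turn moved it between 0.19 and 0.28. The other differences of Sesn2, from liver over brain to heart, were -0.0060, -0.015 and 0.022. Gdf15 levels in heart were -0.29, -0.37 and -0.41 in KI mice, against -1.02, -0.83 and -0.32 in WT mice, a difference of 0.36 (SE 0.20, limma adjusted p = 0.978). WT mouse F lay within the KI range, and on the slide that held the hearts of mice C and F alone the difference was -0.098, against 0.59 on the slide with the other 4. In muscle Gdf15 was at -4.89 (not well above background), -2.36 and -3.67 in KI and at -3.53, -2.95 and -3.33 in WT mice, a difference of -0.37 (SE 0.59, limma adjusted p = 1.00). Here the lowest and the highest muscle were both KI. Without the muscle of KI mouse B it was -1.01, and without that of KI mouse A it was 0.25. Liver levels of Gdf15 spanned 1.51 to 2.90 in WT mice, which enclosed the KI range of 1.96 to 2.11.

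The intervals state how large a rise could have been missed. Over the 36 comparisons, the upper end of the 95% interval lay between 1.04-fold (Btg2 in liver) and 2.91-fold (Cdkn1a in muscle) higher in KI. It was under 1.5-fold in 25 comparisons and reached 2-fold or more in 4, namely Cdkn1a in brain and muscle and Gdf15 and Btg2 in muscle. A rise of Mdm2 above 1.39-fold lay outside its interval in every tissue, whereas for Cdkn1a in brain and muscle a rise of 2-fold lay inside. When the 4 arrays with transcripts of another tissue were left out, each in the fit of its own tissue, 0 of 9 genes passed the threshold in every tissue. The differences moved by at most 0.34 in brain, 0.11 in liver, 0.64 in muscle and 0.21 in heart. Those of Cdkn1a became 0.12 in brain, 0.018 in liver, 0.16 in muscle and 0.12 in heart. Signs changed for 3 genes in brain (Sesn2, Gdf15 and Btg2), 5 in muscle (Mdm2, Ccng1, Bax, Trp53inp1 and Btg2), 4 in heart (Mdm2, Ccng1, Phlda3 and Sesn2) and 0 in liver. Gdf15 in muscle was the 1 comparison of 36 with an unadjusted limma p under 0.05 in these fits. The share of all genes under it is not given here for these fits, and was 0.829% for muscle with all arrays. The Gdf15 difference of -1.01 rests on 2 KI muscles of which 1 was not well above background.

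**Figure D2:**
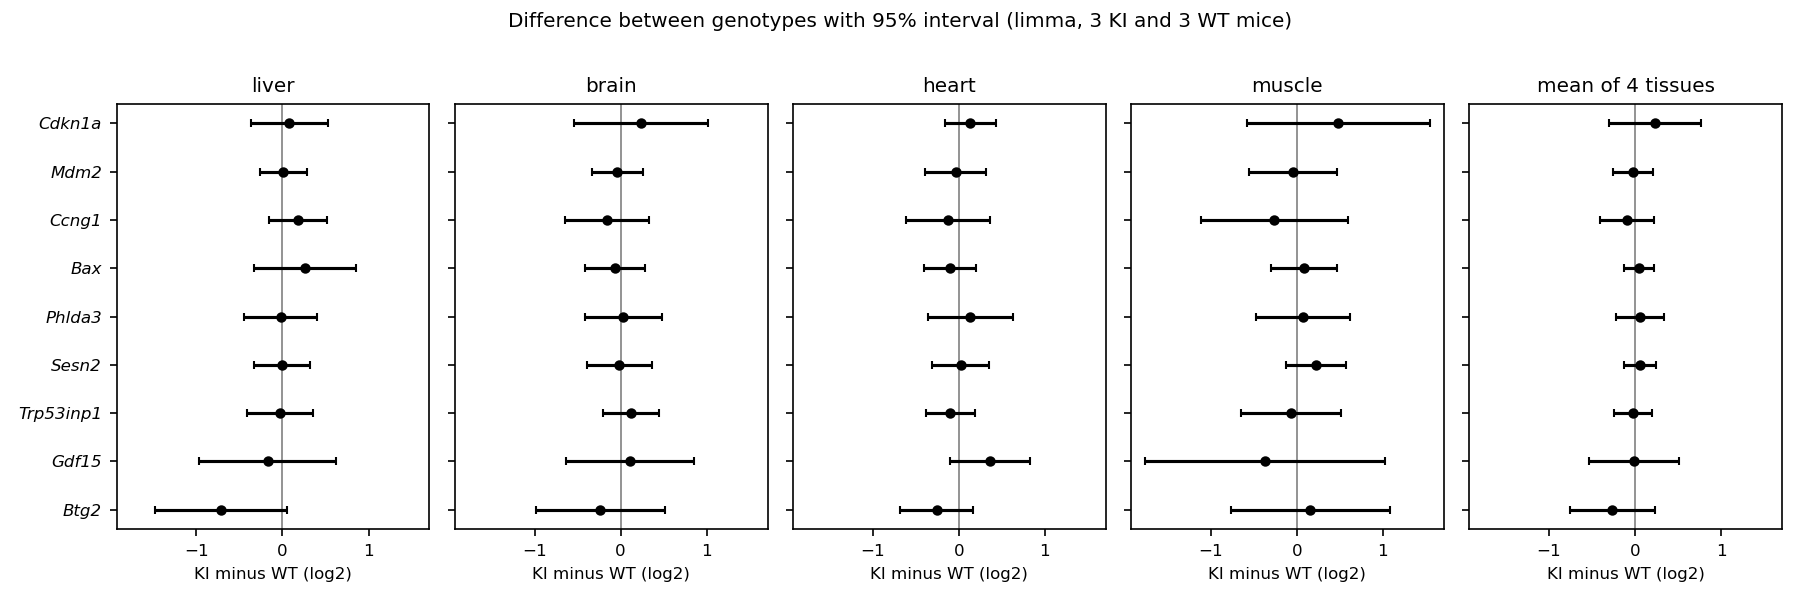
KI minus WT difference in log2 level (horizontal axis) for the 9 p53 target genes tested, in each tissue and in the average over the 4 tissues of a mouse. Points are limma estimates from 3 KI and 3 WT mice and bars are 95% intervals; every bar includes 0, and the widest are Gdf15 and Cdkn1a in muscle.

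Levels were also averaged over the 4 tissues of each mouse. In this average, 0 of 9 genes passed the threshold, where 0% of all 17297 genes passed, 0 of 9 had an unadjusted p under 0.05 against 3.51% of all genes, and 0 of 9 separated the genotypes against 8.89%. Mdm2 differed by -0.027 (95% interval -0.26 to 0.21), Bax by 0.044 (-0.13 to 0.22), Sesn2 by 0.056 (-0.13 to 0.24), Trp53inp1 by -0.019 (-0.24 to 0.20) and Phlda3 by 0.054 (-0.22 to 0.33). Cdkn1a differed by 0.23 (-0.30 to 0.77) and Btg2 by -0.26 (-0.76 to 0.24). Without KI mouse A the difference of Cdkn1a was 0.44 and that of Btg2 -0.32. Without KI mouse B they were 0.10 and -0.36, and without KI mouse C 0.16 and -0.11. The genotype difference itself was compared between tissues with a moderated F-test, in which 0 of 9 genes passed, against 0% of all genes. At an unadjusted p under 0.05 the counts were 0 of 9 and 1.84%. The smallest unadjusted F-test p among the listed genes was 0.425, for Btg2.

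Within the groups, the listed genes did not rise and fall together as a set, although a few pairs did. Deviations of each array from the mean of its group were correlated over the 24 arrays for the 8 genes well above background on all of them, which share tissue pieces, mice and array scaling. Over the 28 pairs the median correlation was -0.055, the range ran from -0.43 to 0.73, and 12 pairs were positive. Mdm2 and Ccng1 had the highest correlation at 0.73, followed by Ccng1 and Trp53inp1 at 0.61 and by Phlda3 and Sesn2 at 0.55. Deviations were not scaled by group, and Ccng1, Mdm2, Trp53inp1 and Cdkn1a each had their widest spread in the KI muscles. The SD of Ccng1 was 0.75 there and at most 0.38 in the other groups. Correlations among these genes therefore lean most on the 3 KI muscles, that of KI mouse B among them. Cdkn1a went against Mdm2 at -0.40, Trp53inp1 at -0.42 and Ccng1 at -0.37, and was closest to Phlda3 at 0.37. Among 11617 genes well above background on all arrays, the 5 whose deviations were most like those of Cdkn1a were Baz1b (0.91), Rbpms (0.89), Gata2 (0.84), Tns2 (0.84) and Serhl (0.84). The 5 most like the mean of the listed genes were Rnpep (0.86), Rps6ka1 (0.83), Tsc22d3 (0.82), Cdc42 (0.80) and Clip1 (0.80).

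Between tissues the levels of these genes were widely apart. In WT mice, 37 of 54 comparisons of a listed gene between 2 tissues passed the threshold, and 0 of these 37 changed sign under quantile normalization, normexp background correction or the deposited scores. All livers lay on 1 slide and all muscles on another, so that tissue and slide cannot be told apart between liver and muscle. The other comparisons between tissues were not balanced over slides either. Tissues differ in most genes, so that these counts are near those of all genes. Liver against brain gave 3 of 9 genes higher and 2 lower, beside 43% and 36.5% of all 17097 genes. Liver against heart gave 3 higher and 4 lower, beside 32.3% and 36.3%, and liver against muscle 3 higher and 4 lower, beside 33.6% and 39.3%. Brain against heart gave 2 higher and 5 lower, beside 32.1% and 42%, brain against muscle 1 higher and 5 lower, beside 33.4% and 43.9%, and heart against muscle 1 higher and 4 lower, beside 26.4% and 27.8%. The median of all genes lay 0.20 higher in liver than in brain and 0.28 lower in brain than in muscle on this scale, which is small beside most of the differences that follow.

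Mdm2, Ccng1, Cdkn1a and Phlda3 were highest in muscle in both genotypes. Phlda3 was at 6.93 ± 0.31 in WT muscle and 0.65 ± 0.26 in WT liver (SD, n = 3 each), with brain and heart between them, and all 6 pairs of tissues passed. The closest pair, brain and heart, differed by 0.55 (SE 0.18, limma adjusted p = 0.0178), a call that was lost without WT mouse E (0.49) or WT mouse F (0.60). Its liver level was lower by 6.28 (SE 0.18), or 77.8-fold, with a limma adjusted p of 3.07e-10. Ccng1 was at 6.37 ± 0.13 in muscle and 5.54 ± 0.08 in heart, against 1.66 ± 0.36 in brain and 1.54 ± 0.11 in liver (SD, n = 3 each). Liver and muscle differed 28.5-fold (limma adjusted p = 1.48e-09), while liver and brain did not differ beyond their spread (limma adjusted p = 0.533). Mdm2 followed the same order, with liver and muscle 3.63-fold apart (limma adjusted p = 1.83e-07) and liver and brain at 3.30 and 3.31 (limma adjusted p = 0.990). Cdkn1a was lowest in liver, at -1.21 ± 0.10 (SD, n = 3), which lay 3.63-fold below muscle (limma adjusted p = 0.000373). Liver and brain differed by -1.39 (limma adjusted p = 0.00235), and by -0.015 when all probes of Cdkn1a were averaged. The second probe in that average was well above background in 1 of 3 WT livers and 0 of 3 WT brains. Among muscle, brain and heart no pair of Cdkn1a levels passed the threshold.

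Gdf15, Trp53inp1, Sesn2 and Bax were highest in WT liver. Gdf15 was at 2.23 ± 0.70 there, -0.72 ± 0.36 in heart, -3.27 ± 0.30 in muscle and -4.13 ± 0.46 in brain (SD, n = 3 each). Liver and brain were 82.0-fold apart (limma adjusted p = 3.65e-08), and all 6 pairs of tissues passed. The brain level of Gdf15 lay 0.86 under the muscle level (SE 0.36, limma adjusted p = 0.0475), and this call was lost under quantile normalization (-0.60, limma adjusted p = 0.161), on the deposited scores, without the filter on dim probes, and without WT mouse D (-0.96) or WT mouse F (-0.68). Trp53inp1 also passed in all 6 pairs, with 3.00 ± 0.27 in liver and -0.11 ± 0.15 in brain (SD, n = 3 each), 8.64-fold apart (limma adjusted p = 1.37e-08). Heart lay 0.50 under muscle (SE 0.15, limma adjusted p = 0.0198), a call lost without WT mouse D (-0.51) or WT mouse E (-0.40). Its second probe was likewise highest in liver, at -1.89 ± 0.44, and lowest in brain, at -3.35 ± 0.09 (SD, n = 3 each), but its liver and muscle values did not pass (0.37, limma adjusted p = 0.116). Sesn2 formed a high pair, liver and brain (limma adjusted p = 0.916 between them), and a low pair, muscle and heart (limma adjusted p = 0.0643), with liver 2.12-fold above heart (limma adjusted p = 5.60e-06). Bax had the narrowest spread of the 9 genes. Its liver level of 2.27 ± 0.36 (SD, n = 3) exceeded the brain level of 1.81 ± 0.13 (SD, n = 3); the gap was 0.46 (SE 0.17, limma adjusted p = 0.0293), beside the shift of 0.20 in the median of all genes, a call that was lost without any 1 of the WT mice, with the mouse as a block (limma adjusted p = 0.0502) and under quantile normalization. Without WT mouse E the difference was 0.19. No other pair of tissues passed for Bax.

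Btg2 was highest in WT heart at 0.85 ± 0.18, followed by muscle at 0.60 ± 0.40, liver at 0.24 ± 0.65 and brain at -0.14 ± 0.34 (SD, n = 3 each). Heart and brain were 1.98-fold apart (limma adjusted p = 0.0169, and 0.0813 without WT mouse D), and the neighbours in this order did not differ beyond their spread. The KI mice had the same order of tissues for Cdkn1a, Bax, Phlda3, Sesn2, Trp53inp1 and Gdf15. In KI, brain and liver changed places for Ccng1 and Mdm2, the tissues whose WT levels of these genes were alike. Btg2 ran from muscle to liver in KI mice, where the muscle of KI mouse B had the highest level of all 24 arrays.

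**Figure D3:**
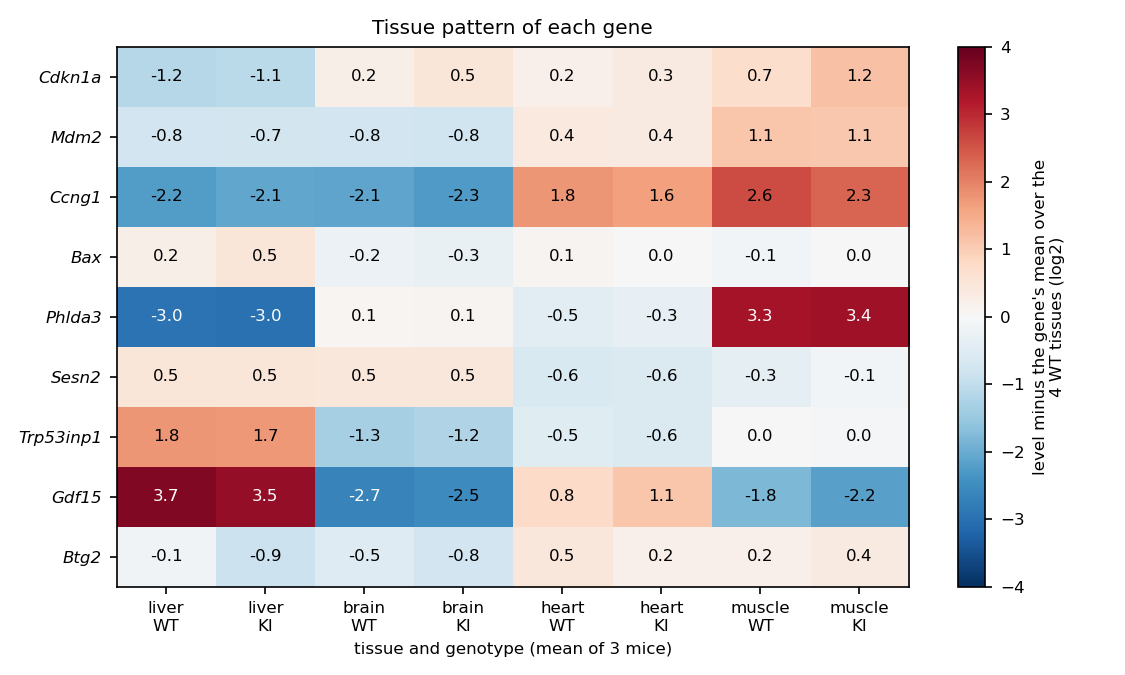
Mean level of each p53 target gene in the 8 groups (columns, 3 mice each), shown as the log2 difference from the mean of that gene over the 4 WT tissues. Neighbouring WT and KI columns have like colours, whereas WT tissues differ by up to 6.36, the span of Gdf15 between liver and brain.

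The gene of p53 itself, Trp53, was well above background on all 24 arrays. Its liver levels were -1.10, -0.27 and -0.85 in KI mice, against 0.77, -0.57 and -0.012 in WT mice, a difference of -0.80 (SE 0.37, limma adjusted p = 0.446). WT mouse E lay within the KI range. It differed by -0.32 in brain (SE 0.42), 0.14 in heart (SE 0.26) and -0.0042 in muscle (SE 0.24). Since p53 is controlled mainly at the protein level, its transcript is no measure of its activity. Of 20 genes for p53 and its regulators, 18 (muscle) to 20 (heart) were tested, and 0 passed the threshold. At an unadjusted p under 0.05, 1 gene was higher and 1 lower in KI livers, beside 11.7% of all genes. In KI hearts 1 was lower, beside 1.6%. The groups were apart for 4 genes higher and 1 lower of 19 in liver, beside 19.8% of all genes. They were apart for 3 lower of 20 in heart (4.82%), 1 lower of 18 in muscle (3.6%) and 0 of 19 in brain (2.82%). Cdkn2a, which encodes p16 and the MDM2 inhibitor ARF, was the gene higher in KI livers. It differed by 0.62 (SE 0.17, limma adjusted p = 0.374), with all KI livers above all WT livers. Twist1, an opponent of p53, had a difference of -0.82 in liver (SE 0.33, limma adjusted p = 0.421), where it was well above background in 3 WT but in 1 of 3 KI livers. In heart Chek1, the checkpoint kinase below ATR, had a difference of -0.95 (SE 0.38, limma adjusted p = 0.978), and it too was well above background in 3 WT but in 1 of 3 KI hearts. Both genes were therefore tested through the WT group alone, and the sizes of these differences rest on KI values near background. In brain and muscle no gene of this list lay under an unadjusted p of 0.05. The medians of this list were -0.10, -0.059, -0.044 and -0.015 in liver, brain, heart and muscle, beside medians of all genes of 0.047, -0.020, -0.051 and 0.026.

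A wider list of 27 further p53 targets was counted in the same way. Of these, 21 (muscle) to 26 (brain) were tested, with 0 past the threshold. At an unadjusted p under 0.05, 1 was higher and 1 lower in KI livers, where 11.7% of all genes lay under it, and 0 in the other tissues. Plk3, a stress kinase that is also an immediate early gene, differed by -1.25 in liver (SE 0.40, limma adjusted p = 0.397), and Abhd4, a lipase, by 0.45 (SE 0.15, limma adjusted p = 0.397). Bbc3, which encodes the killer protein PUMA, had the smallest p of the list in muscle, at a difference of 0.41 (SE 0.20, limma adjusted p = 1.00). In the mean of the 4 tissues Bbc3 differed by 0.29 (SE 0.12), with each KI mouse above every WT mouse, as in 8.89% of all genes, and a limma adjusted p of 0.985. Medians of the list were 0.093 (liver), 0.0050 (brain), -0.10 (heart) and -0.023 (muscle), and for the 9 tested genes of the main list they were -0.0060, -0.015, -0.038 and 0.070.

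**Figure D4:**
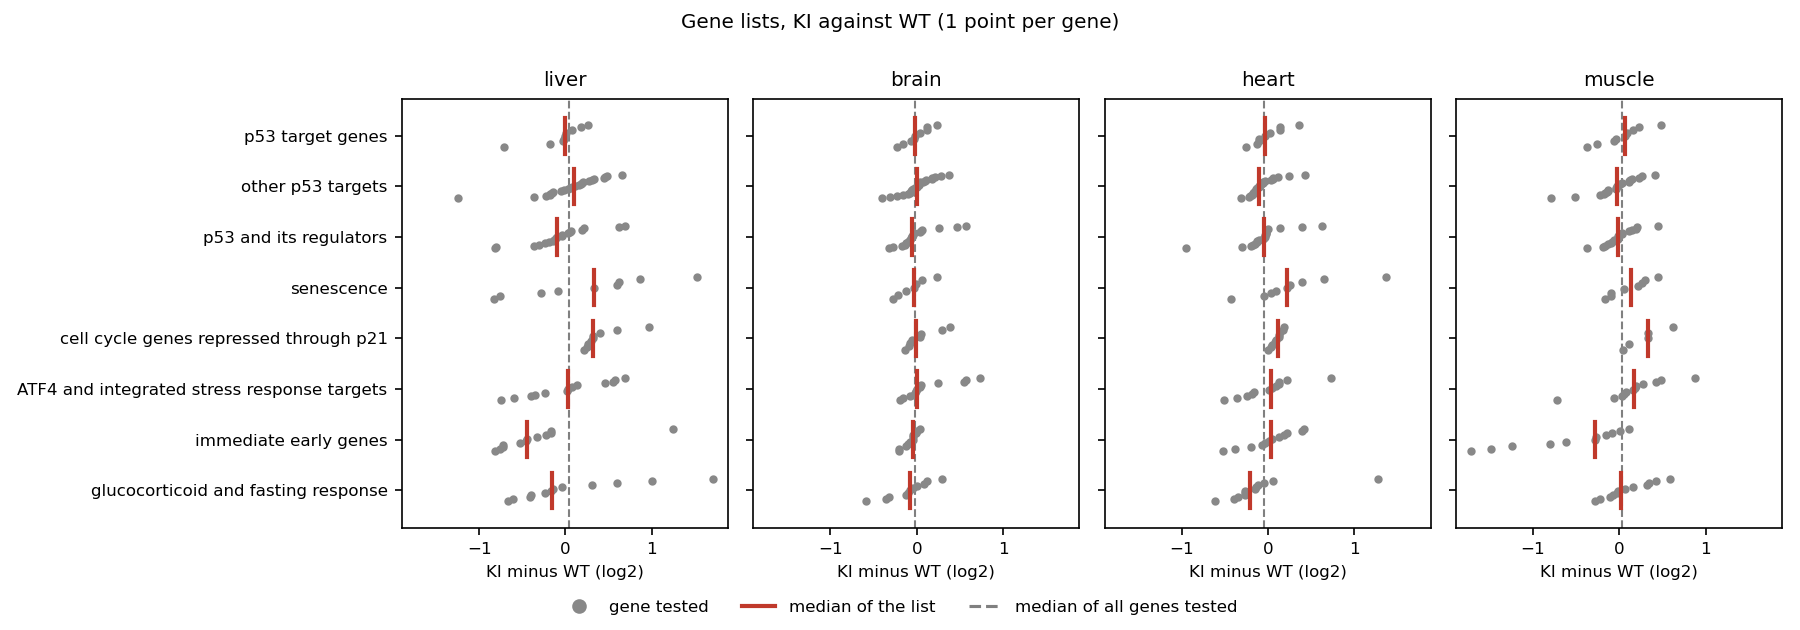
KI minus WT difference in log2 level (horizontal axis) of every gene tested in 8 gene lists (rows) in 4 tissues, 1 grey point per gene, with the median of the list in red and the median of all genes tested as a dashed line. The p53 target genes lie around the dashed line in each tissue, with list medians from -0.038 in heart to 0.070 in muscle.

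Genes that follow a p53 arrest or senescence were counted next. Of 12 cell cycle genes known to be repressed through p21, such as Mki67 and Plk1, 0 passed. The KI minus WT difference was positive for 9 of 9 tested in liver and 4 of 8 in brain. It was positive for 9 of 10 in heart and 5 of 5 in muscle. Medians were 0.32, -0.010, 0.11 and 0.33, beside 0.047, -0.020, -0.051 and 0.026 for all genes. Mki67 differed by 0.97 in liver (SE 0.49, limma adjusted p = 0.467), and by 1.5 without the liver of KI mouse C. In muscle the summed level of this list was 4.14 in KI mouse B and 3.04 in WT mouse D and 0.94 to 1.18 in the other 4 mice. Without the muscle of KI mouse B, which carried mammary transcripts, all 5 muscle differences were negative. They ran from -0.085 for Mcm2 to -1.17 for Mki67. Of the senescence list, 9 of 10 genes were tested in liver and 0 passed. At an unadjusted p under 0.05, 3 were higher and 1 lower in KI, beside 11.7% of all genes. Cdkn2a, described above, belongs to this list as well and is 1 of the 3. Igfbp3, a secreted binder of insulin-like growth factors, was higher by 0.87 (SE 0.22, limma adjusted p = 0.364). Of 8 immune cell markers, 7 were tested in liver, and 5 had a positive difference. Lyz2 differed by 0.72, Adgre1 by 0.61 and Cd68 by 0.55, each with all 3 KI livers above all 3 WT livers, as the groups were apart in 19.8% of all genes, while Itgam differed by -0.30 and Cd3e by -0.051. The summed immune marker level was 4.61 to 6.34 in KI and 4.69 to 6.02 in WT livers over all 8 markers of the list. Their part in the differences of Cdkn2a and Igfbp3 was not tested.

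Stress genes outside the p53 pathway were counted because Sesn2, Gdf15, Trp53inp1 and Btg2 answer to them as well. Of 14 targets of ATF4, 0 passed in any tissue; Ppp1r15a, a phosphatase subunit that ends the stress response, differed by -0.35 in liver (SE 0.14) and Phgdh, an enzyme of serine synthesis, by 0.72 in heart (SE 0.28). Of 12 immediate early genes, the difference was negative for 11 of 12 tested in liver and 9 of 11 in brain. It was negative for 5 of 12 in heart and 9 of 11 in muscle. Medians were -0.45, -0.046, 0.030 and -0.29, beside 0.047, -0.020, -0.051 and 0.026 for all genes. The brain count depended on KI mouse C, whose brain array had raised hepatocyte markers. With that array left out, every brain difference of this list was positive except that of Egr1 (-0.060). The largest was that of Fos, at 0.48. In liver, Jun differed by -0.46 (SE 0.17, limma adjusted p = 0.405) and Fosb by -0.53 (SE 0.21, limma adjusted p = 0.412), while Egr2 differed by 1.25 (SE 0.48). In muscle Egr1 differed by -1.72 (SE 0.61, limma adjusted p = 1.00), in the tissue where Btg2 differed by 0.16. Of 12 genes of the glucocorticoid and fasting response, 0 passed, and Per1, a clock gene, differed by -0.66 in liver (SE 0.20, limma adjusted p = 0.392). Of the immediate early genes, Dusp1, a phosphatase that dampens MAP kinases, differed by -0.38 in heart (SE 0.16).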

How the data were processed

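Transcript levels were measured in total RNA labelled with Cy3, on 1 one-colour Agilent mouse array per sample (24 arrays, 6 mice). Agilent Feature Extraction (12.0.3.1 in the deposited headers) gave the intensity values of the authors, who deposited the processed signal, which that program corrects for background and spatial trends, without normalization between arrays. The deposited score table of 33912 features held z-scores of the log signal within each array (largest difference from the scanner values 0.005) and served only as an alternative. After removal of control spots and outlier flags (121 to 347 spots per array), 55681 probes remained, with 573 missing values. The log2 processed signal was scaled by subtracting the log2 75th percentile of its array, which lay between signals of 269.5 and 2198.4; 49.4% to 68.4% of probes were well above background, and the number of arrays limits the precision.

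RefSeq accessions, looked up in a GRCm38.p6 gene table, named 50.9% of probes; coordinates are given only for the promoter windows, since the array design used an older build. The probe of highest mean stood for a gene. Testing required a probe well above background on all 3 arrays of 1 or both genotypes. The model of each tissue (limma 3.58.1, R 4.3.3; lmFit and eBayes, two-sided) was used with Benjamini-Hochberg adjustment over all genes and a threshold of 0.05; so were the mean of 4 tissues, the genotype by tissue interaction (F-test) and the 4 WT tissues. The fits were tested on simulated data. With 3 against 3, an exact permutation test cannot go below a p of 0.10. The members and all lists were chosen with earlier results of these data known. All 10 members were named, with statistics for Cdkn1a, Mdm2 and the 3 others of smallest p in each tissue, for the highest against the lowest WT tissue, and for up to 2 genes of other lists in each tissue; Bbc3 in the mean of 4 tissues, Lyz2, Adgre1, Cd68, Itgam, Cd3e and the tissue markers were named after their values were seen. Arrays of 1 number come from 1 mouse, and deviations over 11617 genes correlated by 0.020 on average within a mouse (range -0.26 to 0.34) and by -0.0092 between mice.

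Brain and heart arrays were spread over slides that held both genotypes; all liver arrays shared 1 slide, as did all muscle arrays. Alternatives covered scaling, background correction, the deposited scores, filters, probe choice, the slide and the mouse as blocks, a fit of all arrays, a z ratio over 1.5 with unadjusted p, and each array left out.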

Additional observations from a re-analysis of the deposited data

How the results depend on the processing

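The count of p53 target genes past the threshold between KI and WT mice was 0 in each tissue, in the mean of 4 tissues and in the interaction under every alternative run, including the z ratio and each array left out (lowest 0, highest 0). A replicate block for the mouse, that is the pairing of tissues, left these counts at 0, and between WT tissues it gave 4 genes for liver against brain (5 without it) and 7 for brain against muscle (6 without it). Counts between WT tissues stayed within 1.5 times the reported ones. Of 426 alternative values of single genes, 398 kept their direction and side of the threshold, 19 changed sign, 2 were exactly 0 (Mdm2 in brain and heart on the deposited scores) and 7 lost a call between the highest and the lowest WT tissue, all of them Bax or Btg2. Signs changed only where the difference between KI and WT was not past the threshold. Cdkn1a in liver gave -0.22 as the mean of its probes, and in heart -0.0051 with the second probe. That probe was well above background in 0 KI and 1 WT livers, and in all hearts. Mdm2 in liver gave -0.017 with quantile normalization and -0.0033 on the deposited scores, in brain 0.0064 on the z-score scale, and in heart 0.053 with quantile normalization. Gdf15 in muscle gave 0.014 with normexp. For these values the cause was not tested. With single arrays left out, values ran from -0.047 to 0.27 for Cdkn1a and -0.034 to 0.057 for Mdm2 in liver, -0.079 to 0.54 for Cdkn1a, -0.087 to 0.0061 for Mdm2 and -0.43 to 0.10 for Btg2 in brain, -0.14 to 0.063 for Mdm2 in heart, and -0.22 to 0.070 for Mdm2, -0.63 to 0.11 for Ccng1 and -1.01 to 0.25 for Gdf15 in muscle. Signal limits Eda2r, for which no group was well above background on all 3 arrays.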
